A study of Mus musculus with 14 samples.

Results

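The hedgehog ligand and receptor genes studied here are Dhh, Ptch1, Smo, Hhip, Sufu, Boc and Gas1, measured in whole mouse testis. They were taken as every non-control array probe whose gene name in the files equals 1 of these symbols. This gave 15 of 41174 non-control probes, for 7 of 27670 gene names. Total RNA came from C57BL/6 mice in 4 groups, which were 1-week Glis3KO2 (4 samples), 1-week WT (4 samples), 4-week Glis3KO2 (3 samples) and 4-week WT (3 samples), each sample on 1 Agilent single-colour array. Glis3 is a DNA-binding zinc finger protein of a family close to GLI, and the label Glis3KO2 marks its knockout. How the allele was made is not given in the sources used here. No mouse was treated, and the pups stayed with their mothers. The older mice are 4 weeks old by the sample labels, used here, and 3 weeks old by the design text. The labels do not say that samples are separate animals, so p-values measure only the spread between these samples.

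Hedgehog ligands are secreted proteins that bind the receptor Ptch1 and so relieve its inhibition of the membrane protein Smo, which then signals through the primary cilium to the GLI transcription factors. In the testis the ligand is Dhh, which Sertoli cells make. Leydig cell precursors and peritubular cells carry the receptor and respond, and mice without Dhh have few fetal Leydig cells and abnormal seminiferous tubules. Boc and Gas1 are cell-surface co-receptors that help ligand binding. Hhip is a surface protein that binds and sequesters ligand, Sufu is an inhibitor that holds GLI proteins in check inside the cell, and Ptch1 and Hhip are themselves induced by the pathway.

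All values are log2 signals of 1 probe relative to the 75th percentile of the same array, so a level of 0 is that percentile and a difference of 1 is a 2-fold change. Levels of different probes are not compared with each other. The spot flags give whether a probe was well above background on an array, and a probe was tested in a comparison when this held for 3 or more arrays of any group compared. Of the 15 probes 12 were tested, at least 1 for each gene. The 3 others were a Smo probe (A_51_P392665), well above background only on 1 of 4 1-week Glis3KO2 arrays and 2 of 4 1-week WT arrays, and 2 Boc probes (A_52_P623296 and A_51_P162636), above background on no array. The position of each probe is that of the files' mm7 annotation. No gene models of that build were used, so exons and untranslated regions cannot be assigned here.

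Some sequences bear directly on the results below. The Dhh probe lies at chr15:98878292-98878351 on the minus strand. A stretch of 30 bases near its end is shown because it holds the letters AATAAA, in capitals, those of the usual polyadenylation signal. A match of these letters can occur by chance and does not place the probe in a transcript.
Dhh A_52_P232637, 30 bases: atttgtggccaaAATAAAgattctagagtg
The Smo probe at chr6:29687728-29688961 on the plus strand covers a span of 1234 bases with 60 bases of probe sequence, so it crosses at least 1 intron.
Smo A_52_P444864: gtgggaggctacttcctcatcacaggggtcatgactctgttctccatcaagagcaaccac
The Sufu probes are shown because they gave different results. They lie on the plus strand at chr19:46351403-46351462, chr19:46380235-46380294 and chr19:46385251-46385310, and the first and second start 33848 and 5016 bases before the third. The first 30 bases of the third are given.
Sufu A_52_P603184: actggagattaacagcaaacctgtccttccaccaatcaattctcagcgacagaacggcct
Sufu A_51_P396550: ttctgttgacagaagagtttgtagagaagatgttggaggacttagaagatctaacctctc
Sufu A_52_P340811, first 30 bases: tgctgcaatgaacagacttttgtacatttt

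Promoter sequences of 6 of the 7 genes were found in the RefSeq table of build GRCm38.p6, each running from 250 bases before to 50 bases after the start site, and the gene without an entry was Boc. Dhh and Hhip are shown as the ligand and a gene that the pathway induces, with matches to the GC box, GGGCGG on either strand, in capitals. The windows are chr15:98898491-98898790 for Dhh and chr8:80057959-80058258 for Hhip, both on the minus strand and written 5' to 3'.
Dhh promoter: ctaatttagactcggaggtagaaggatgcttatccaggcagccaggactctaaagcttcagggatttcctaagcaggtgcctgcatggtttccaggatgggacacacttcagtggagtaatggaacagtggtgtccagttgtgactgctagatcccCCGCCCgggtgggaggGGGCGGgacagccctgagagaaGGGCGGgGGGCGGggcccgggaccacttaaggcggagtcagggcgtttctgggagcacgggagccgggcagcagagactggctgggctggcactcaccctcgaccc
Hhip promoter: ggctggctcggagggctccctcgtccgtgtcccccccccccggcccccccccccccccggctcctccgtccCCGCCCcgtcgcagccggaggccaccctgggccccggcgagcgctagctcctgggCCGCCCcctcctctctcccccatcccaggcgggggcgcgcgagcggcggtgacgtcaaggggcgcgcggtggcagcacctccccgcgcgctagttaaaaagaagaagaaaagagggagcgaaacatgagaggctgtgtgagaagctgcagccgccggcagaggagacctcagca
The GC box occurred at 4 places in the Dhh window and at 2 in the Hhip window, and in 5 of the 6 promoters in all, Smo being the exception, against 35.7% of 32851 promoters in the table. The GLI core GACCACCCA and the GLIS core TGGGGGGT, searched on both strands, were in 0 of the 6 windows, against 0.253% and 1.53% of all promoters. As no match to either core was found, none overlapped a GC box. The absence says only that these letters are not in these windows. The GC content was 61.7% for Dhh, 73.7% for Hhip, 76.3% for Ptch1, 67.7% for Smo, 62.3% for Gas1 and 56.3% for Sufu, each above the median of 52.7% over all promoters.

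On each array 74.3% to 86.56% of non-control spots were well above background. This share stood apart on 1-week WT replicates 1 to 3, at 82.61% to 86.56%, against 74.3% to 78.45% on the 1-week Glis3KO2 arrays and 76.68% on 1-week WT replicate 4. Arrays of the 2 ages lay on different slides, and 1-week Glis3KO2 replicate 4 was alone on its slide. Glis3 itself (probe A_52_P546200) was not well above background on any of the 4 1-week Glis3KO2 arrays and was above it on all 4 1-week WT arrays, at least 4.25-fold lower in Glis3KO2 (limma adjusted p = 0.00535). At 4 weeks it was above background on 0 of 3 Glis3KO2 and 0 of 3 WT arrays, so it does not check the 4-week labels. Among testis markers, all 11 Sertoli and all 9 Leydig cell genes were above background on at least 1 array of every group.

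At 4 weeks the ligand, its receptor, Smo, the co-receptors Boc and Gas1, and Hhip were all higher in Glis3KO2 testis. The rise was 5.03-fold for Dhh and 2.87-fold for Boc, and the sizes for Ptch1 and Hhip depended on the background correction. Sufu, the intracellular inhibitor, was lower on all 3 of its probes. At 1 week only Dhh passed the test, at a 1.83-fold higher level, in a call that several alternatives did not keep. The 12 tested probes comprised 9 that rose, 3 that fell and 0 that did not pass the test at 4 weeks, with a median difference of 2.08, against 69.4% of all 31382 probes called in either direction (35.6% higher, 33.8% lower) and a median of 0.053. Of the 9, Ptch1 A_51_P127435 and Hhip A_51_P416822 passed the background filter only through Glis3KO2, so that their direction was partly set by it. At 1 week 1 rose, 0 fell and 11 did not pass, with a median of 0.20, against 9.99% of 33710 probes called (3.24% higher, 6.76% lower) and a median of -0.12. The adjusted p-values are from limma with Benjamini-Hochberg adjustment over all probes tested, and a call is an adjusted p under 0.05. Calls among all probes leaned lower at 1 week (1091 higher, 2278 lower) and leaned higher (3696 higher, 1523 lower) when arrays were scaled to their median, which moved the median of all probes from -0.117 to 0.141. Whole-testis RNA cannot tell fewer cells of a type from less RNA per cell.

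Dhh, the ligand, had levels of 6.07, 5.99, 6.41 and 6.69 in 1-week Glis3KO2 testis, against 5.27, 5.45, 5.38 and 5.58 in 1-week WT testis. Every Glis3KO2 array lay above every WT array. The genotypes did not overlap, in either direction, for 4 of the 12 tested member probes (Dhh, both Smo probes and Ptch1 A_51_P127435) and for 27.1% of all probes at this age. The mean was 6.29 ± 0.32 in Glis3KO2 and 5.42 ± 0.13 in WT (SD, n = 4 each), a log2 difference of 0.87 (SE 0.17, limma adjusted p = 0.0297). The call was lost with slide as a block, which takes no information from Glis3KO2 replicate 4 (0.74, limma adjusted p = 0.0896), and within slide 1 (0.91, limma adjusted p = 0.193) and slide 2 (0.47, limma adjusted p = 1), though the direction was the same. Leaving out WT replicate 1, 2 or 3 also took it past the threshold, though the difference was 0.82, 0.88 and 0.85 (limma adjusted p = 0.105, 0.0804 and 0.0925), and a block for the replicate number did so too (limma adjusted p = 0.0616).

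At 4 weeks Dhh had levels of 5.34, 5.45 and 4.74 in Glis3KO2 testis, against 2.85, 2.83 and 2.85 in WT testis. The WT arrays were nearly equal and all Glis3KO2 arrays lay above them. The difference was 2.33 (SE 0.21, limma adjusted p = 0.000521), a 5.03-fold higher level, and it was 2.54 within slide 4 and 1.91 between the single arrays of each genotype on slide 5. Ordered by mean, the level was highest in 1-week Glis3KO2, then 1-week WT, then 4-week Glis3KO2 (5.17 ± 0.38, SD, n = 3) and last in 4-week WT (2.84 ± 0.014, SD, n = 3). The arrays of 1-week WT and 4-week Glis3KO2, the middle neighbours, overlapped.

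**Figure D1:**
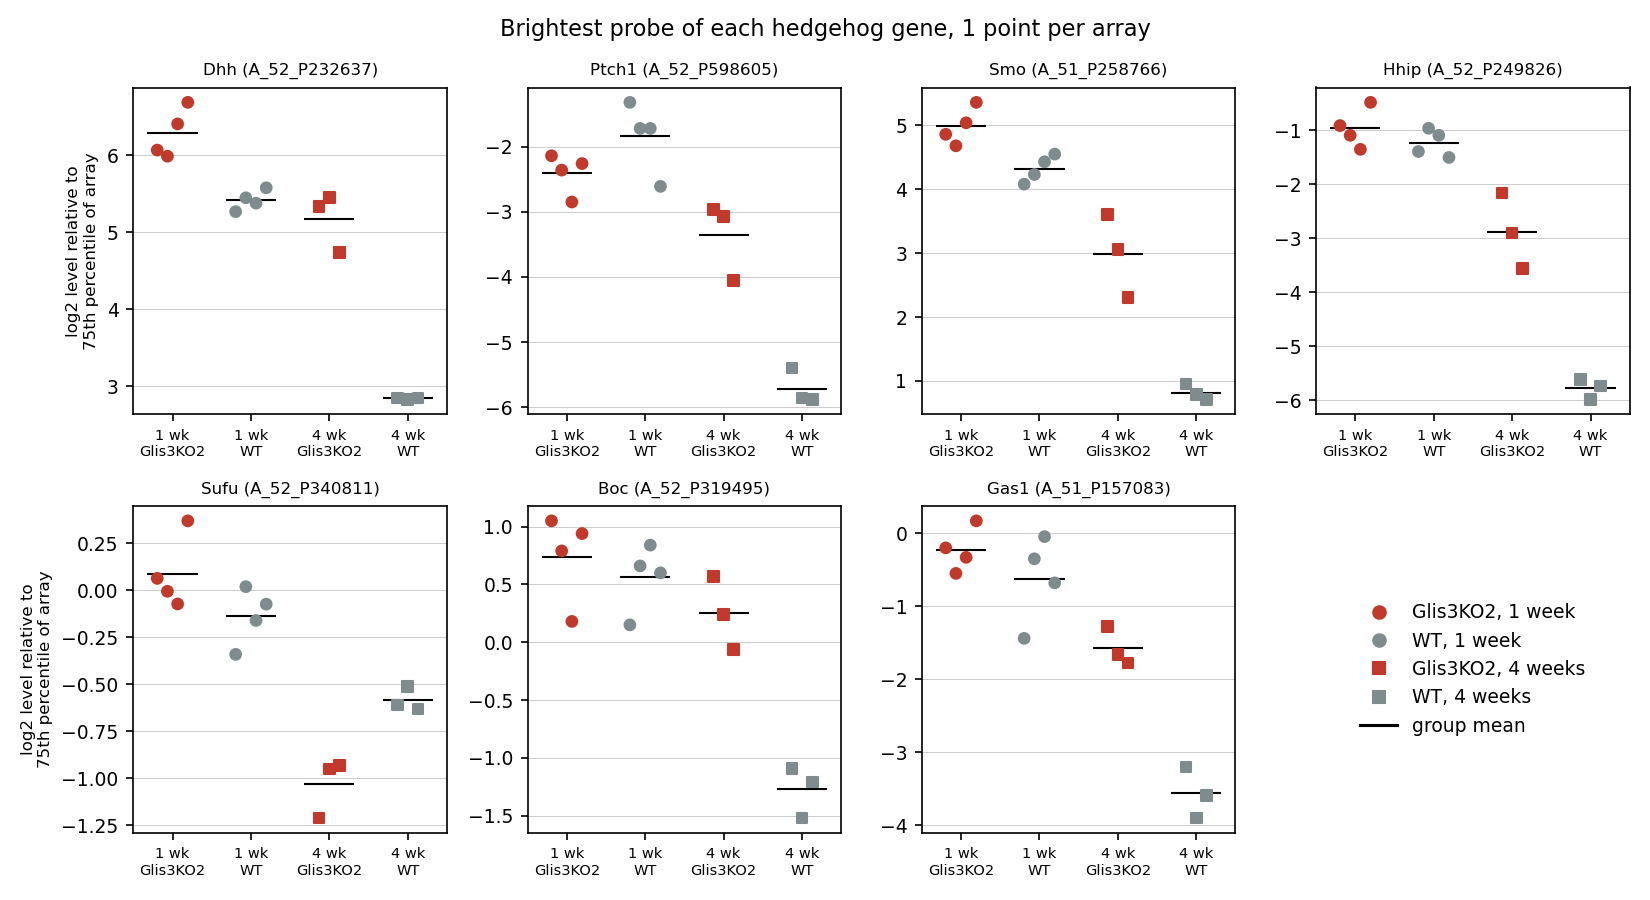
Log2 level relative to the 75th percentile of the array (vertical axis, a separate scale for each gene) for 1 probe of each hedgehog gene, 1 point per array, by group (horizontal axis), with bars at group means. At 4 weeks the Glis3KO2 arrays lie above the WT arrays for all genes shown except Sufu, where they lie below, and at 1 week the genotypes do not overlap for Dhh and Smo.

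Ptch1, the receptor, was measured by 2 probes. A_52_P598605 had levels of -2.96, -3.07 and -4.05 in 4-week Glis3KO2 testis, against -5.40, -5.86 and -5.88 in 4-week WT testis. The groups did not overlap, which held for 12 of the 12 tested member probes and for 77% of all probes at this age. Ptch1 A_51_P127435 and Hhip A_51_P416822 entered this comparison only through Glis3KO2, so the filter itself favours their place in the count. Ptch1 differed by 2.35 on this probe (SE 0.32, limma adjusted p = 0.00104), or 5.09-fold. A_51_P127435 had levels of -3.84, -4.13 and -4.91 in 4-week Glis3KO2 testis, against -6.51, -7.18 and -6.68 in 4-week WT testis, a difference of 2.49 (SE 0.31, limma adjusted p = 0.000866). This probe is printed in 10 spots per array, of which all 10 were above background on each 4-week Glis3KO2 array and 3, 0 and 6 on the WT arrays, so its WT level is at the edge of detection. As a probe it was above background on 1 of 3 WT arrays and entered the 4-week test through Glis3KO2 alone, so its difference is a description. The SD between its spots was 0.067 to 0.1 on the 4-week Glis3KO2 arrays and 0.13 to 0.58 on the 4-week WT arrays, in each case on the log2 scale.

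At 1 week the Ptch1 differences had the opposite sign and did not pass the test. A_52_P598605 had levels of -2.14, -2.36, -2.85 and -2.26 in Glis3KO2 testis, against -1.32, -1.72, -1.72 and -2.61 in WT testis. WT replicate 4 alone lay within the Glis3KO2 range, and the difference was -0.56 (SE 0.28, limma adjusted p = 0.183). Without that array it was -0.81 (limma adjusted p = 0.0414), and without it and Glis3KO2 replicate 4, the array scanned on another day, it was -0.86 (limma adjusted p = 0.0677). A_51_P127435 had levels of -3.08, -3.22, -4.19 and -3.44 in Glis3KO2 testis, against -2.73, -2.68, -2.71 and -2.84 in WT testis. Here all Glis3KO2 arrays were lower, by -0.74 on average (SE 0.23, limma adjusted p = 0.0682), with Glis3KO2 replicate 3 the lowest. Without that replicate the difference was -0.50 and passed the threshold (limma adjusted p = 0.0459).

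Smo, the signal transducer, had levels of 3.60, 3.06 and 2.31 on probe A_51_P258766 in 4-week Glis3KO2 testis, against 0.95, 0.79 and 0.71 in 4-week WT testis. The difference of 2.18 (SE 0.32, limma adjusted p = 0.00129) was 4.52-fold. The intron-crossing probe A_52_P444864 had levels of -3.50, -4.13 and -4.58 in 4-week Glis3KO2 testis, against -5.74, -5.87 and -5.97 in 4-week WT testis. It gave a difference of 1.79 (SE 0.28, limma adjusted p = 0.00149), so that both probes placed Smo higher in Glis3KO2. Glis3KO2 replicate 3 was the lowest of its group on both probes, as it was for Dhh, Ptch1 and Hhip.

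At 1 week A_51_P258766 had levels of 4.86, 4.68, 5.04 and 5.36 in Glis3KO2 testis, against 4.08, 4.23, 4.43 and 4.55 in WT testis. All Glis3KO2 arrays lay above all WT arrays, yet the difference of 0.66 (SE 0.18) did not pass after adjustment (limma adjusted p = 0.051). It passed in 6 of 22 alternative analyses, such as without WT replicate 4 (0.74, limma adjusted p = 0.0423) or without Glis3KO2 replicate 2 (0.76, limma adjusted p = 0.0434). A_52_P444864 differed by 0.43 (SE 0.15, limma adjusted p = 0.0871), also with no overlap, and passed in 0 of 21.

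Hhip, the ligand-sequestering surface protein, was measured by 2 probes, and both rose at 4 weeks. A_52_P249826 had levels of -2.16, -2.90 and -3.56 in 4-week Glis3KO2 testis, against -5.61, -5.98 and -5.73 in 4-week WT testis, a difference of 2.90 (SE 0.35, limma adjusted p = 0.000767), or 7.45-fold. A_51_P416822 had levels of -4.21, -5.10 and -5.57 in 4-week Glis3KO2 testis and was above background on all 3 arrays, whereas it was above background on 0 of 3 WT arrays. It entered the test only through Glis3KO2, so its difference is a lower bound, at least 3.2-fold higher (limma adjusted p = 0.000516). At 1 week neither probe separated the genotypes. A_52_P249826 had levels of -0.91, -1.09, -1.35 and -0.48 in Glis3KO2 testis, against -1.39, -0.96, -1.09 and -1.50 in WT testis, a difference of 0.28 (SE 0.21, limma adjusted p = 0.341), and A_51_P416822 differed by -0.013 (SE 0.25, limma adjusted p = 0.972).

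The co-receptors Boc and Gas1 had 1 tested probe each. Boc (A_52_P319495) had levels of 0.57, 0.24 and -0.062 in 4-week Glis3KO2 testis, against -1.09, -1.52 and -1.21 in 4-week WT testis, a difference of 1.52 (SE 0.21, limma adjusted p = 0.00115). Gas1 (A_51_P157083) had levels of -1.28, -1.66 and -1.78 in 4-week Glis3KO2 testis, against -3.20, -3.90 and -3.59 in 4-week WT testis, a difference of 1.99 (SE 0.23, limma adjusted p = 0.000724), or 3.98-fold. Both were therefore higher in all Glis3KO2 arrays. At 1 week the groups overlapped for both genes. Boc had 1.05, 0.79, 0.18 and 0.94 in Glis3KO2 testis, against 0.15, 0.66, 0.84 and 0.60 in WT testis, and differed by 0.18 (SE 0.23, limma adjusted p = 0.578). Gas1 had -0.20, -0.55, -0.33 and 0.17 in Glis3KO2 testis, against -1.44, -0.35, -0.046 and -0.68 in WT testis, and differed by 0.40 (SE 0.30, limma adjusted p = 0.342).

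Sufu, the inhibitor of GLI proteins, was the only member lower in 4-week Glis3KO2 testis, and its probes differed in size. A_52_P603184 had levels of -0.81, -1.51 and -0.19 in 4-week Glis3KO2 testis, against 1.48, 2.01 and 1.90 in 4-week WT testis, a difference of -2.64 (SE 0.34, limma adjusted p = 0.000925). A_51_P396550 had -0.97, -1.71 and -0.29 in Glis3KO2 testis, against 1.50, 2.10 and 1.92 in WT testis, a difference of -2.83 (SE 0.36, limma adjusted p = 0.000918). These probes, assigned in the files to NM_015752, were lower in Glis3KO2 by 6.22-fold and 7.09-fold. The probe farthest downstream, A_52_P340811, assigned to BC048168, had -1.21, -0.95 and -0.93 in Glis3KO2 testis, against -0.61, -0.51 and -0.63 in WT testis. Its groups did not overlap either, but they differed by only -0.45 (SE 0.15, limma adjusted p = 0.0305), a call lost in 6 of 18 alternative analyses, among them leaving out any WT array or Glis3KO2 replicate 1 (limma adjusted p = 0.0727 to 0.105). At 1 week the Sufu probes differed by -0.32, -0.49 and 0.23 in the same order, and the lowest limma adjusted p among them was 0.198.

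**Figure D2:**
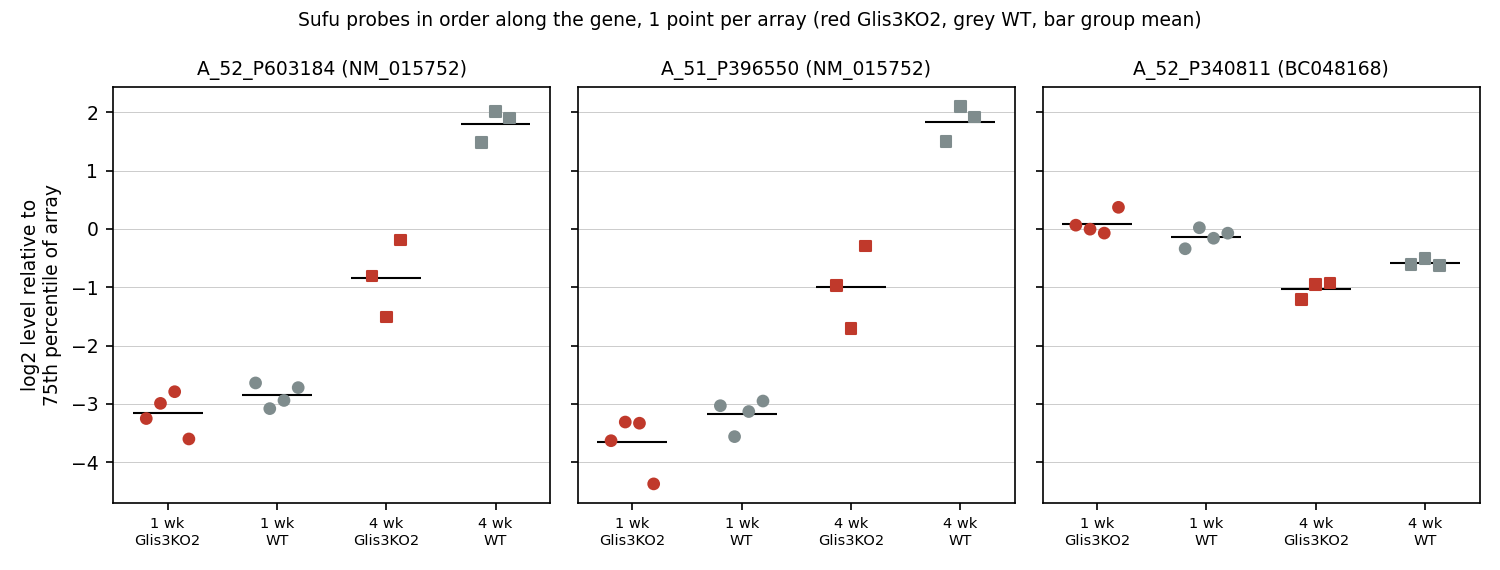
Log2 level relative to the 75th percentile of the array (vertical axis) for the 3 Sufu probes, ordered 5' to 3' along the gene, 1 point per array by group (horizontal axis), with bars at group means. The first and second probes are high in 4-week WT, with 4-week Glis3KO2 between it and both 1-week groups, and the third is lowest in 4-week Glis3KO2.

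The other members that rose at 4 weeks had their lowest level in 4-week WT testis, with no overlap with any other group. For Smo A_51_P258766, Hhip A_52_P249826, Boc and Gas1 the order of means was 1-week Glis3KO2, 1-week WT, 4-week Glis3KO2 and 4-week WT. The 1-week groups overlapped for Hhip, Boc and Gas1, and 1-week WT overlapped 4-week Glis3KO2 for Boc and Gas1. For both Ptch1 probes 1-week WT was highest, then 1-week Glis3KO2, then 4-week Glis3KO2.

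In WT testis the age comparison placed 4-week Dhh, Ptch1, Smo, Hhip, Boc and Gas1 below 1-week levels. Of the 12 probes 2 were higher and 10 lower at 4 weeks, with a median difference of -3.22, against 81.6% of 35031 probes called (29.9% higher, 51.7% lower) and a median of -0.59 over all probes. Of the 10, Ptch1 A_51_P127435 and Hhip A_51_P416822 passed the background filter only through 1-week WT, so their direction was partly set by it. Dhh was 2.84 ± 0.014 in 4-week WT (SD, n = 3) and 5.42 ± 0.13 in 1-week WT (SD, n = 4), a difference of -2.57 (SE 0.095, limma adjusted p = 4.49e-07). The log2 difference was -3.87 for Ptch1 A_52_P598605, -3.51 for Smo A_51_P258766, -4.54 for Hhip A_52_P249826, -2.93 for Gas1 and -1.84 for Boc, each with no overlap between the ages, as was the case for 81.4% of all probes. For Hhip A_51_P416822, at background in 4-week WT, the 4-week level was at least 14.9-fold lower. With normexp background correction the dim probes differed less, by -2.44 for Ptch1 A_52_P598605, -3.14 for Hhip A_52_P249826 and -2.28 for Hhip A_51_P416822, each still called. Sufu ran the other way on 2 probes. A_52_P603184 and A_51_P396550 were higher in 4-week WT by 4.64 and 5.01 (limma adjusted p = 4.16e-07 and 5.96e-07), while A_52_P340811 was lower by a difference of -0.45 (limma adjusted p = 0.0058). Slide and age cannot be told apart in this comparison.

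The genotype difference itself was unequal at the 2 ages for 12 of the 12 tested probes (interaction term of a fit over 14 arrays), against 51.9% of 35144 probes called (31.1% higher, 20.8% lower). The 4-week minus 1-week value was 1.46 for Dhh (SE 0.28, limma adjusted p = 0.00102), 2.91 and 3.24 for the Ptch1 probes, 1.51 and 1.36 for the Smo probes, 1.34 for Boc and 1.59 for Gas1. It was 2.62 for Hhip A_52_P249826 and -0.67, -2.32 and -2.34 for Sufu A_52_P340811, A_52_P603184 and A_51_P396550. Among all probes called, 10947 were higher and 7301 lower, and with scaling to the array median 7570 were higher and 9453 lower, so the share of higher calls depends on the scaling while no member changed sign. This comparison shares its arrays with the others, so the values stand side by side and are not separate support. With normexp background correction the interaction of Smo A_52_P444864 fell short of the threshold (0.58, limma adjusted p = 0.11), and that of the other dim probes was smaller, at 1.62 and 1.60 for Ptch1 A_52_P598605 and A_51_P127435 and 1.50 and 0.99 for Hhip A_52_P249826 and A_51_P416822.

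**Figure D3:**
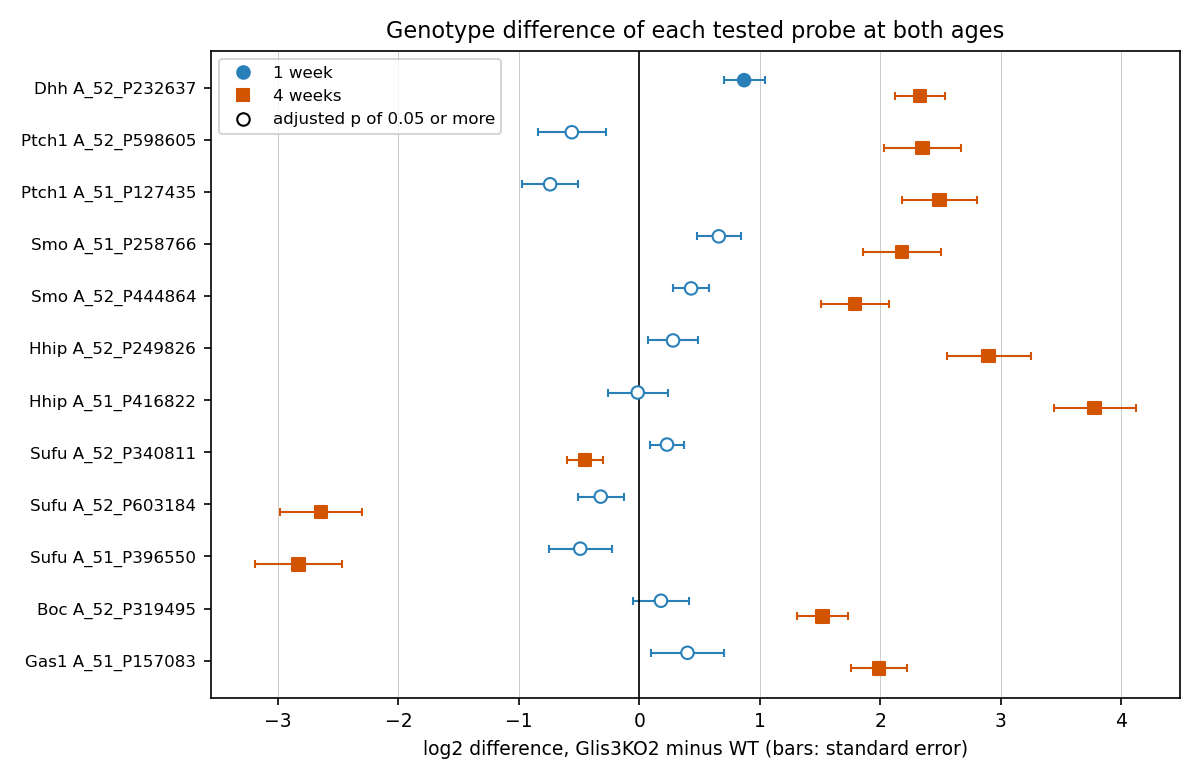
Log2 difference between Glis3KO2 and WT (horizontal axis, bars SE) for each of the 12 tested probes (rows) at 1 week (circles) and 4 weeks (squares), with open symbols where the limma adjusted p was 0.05 or more. At 1 week only Dhh, at 0.87, is filled, and at 4 weeks all are, with Sufu to the left of 0. The 4-week value of Hhip A_51_P416822 uses WT levels at background.

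Background correction changed the size of the 4-week differences for dim probes. With normexp in place of the processed signal, Ptch1 A_52_P598605 differed by 1.23, Ptch1 A_51_P127435 by 1.12, Smo A_52_P444864 by 0.97, Hhip A_52_P249826 by 1.75 and Hhip A_51_P416822 by 1.03 at 4 weeks, all still called. The bright probes moved less, to 2.31 for Dhh, 2.13 for Smo A_51_P258766 and 1.47 for Boc, so the order of sizes among the members depends on the correction. Glis3KO2 replicate 3 and WT replicate 2, the 4-week arrays on slide 5, gave the smaller differences for Dhh, Ptch1, Smo and Hhip. On slide 5 the difference was 1.80 for Ptch1 A_52_P598605, 1.52 for Smo A_51_P258766 and 2.41 for Hhip A_52_P249826, and on slide 4 it was 2.62, 2.50 and 3.14 for the same probes.

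Markers of several cell types moved with these genes at 4 weeks, an age at which 35.6% of all probes were called higher and 33.8% lower. Of 11 Sertoli markers, Dhh among them, 10 rose and 0 fell in Glis3KO2, with a median difference of 2.04. The mean level of the list without Dhh was 2.04 to 2.50 in Glis3KO2 and 0.53 to 0.65 in WT. All 5 markers of stroma and fetal Leydig progenitors rose (median 1.88), among them Pdgfra, the receptor that marks stromal progenitors, by 2.24, and Tcf21, a factor of the same cells, by 1.88. Their mean level was 0.43 to 0.84 in Glis3KO2 and -1.58 to -1.24 in WT. Peritubular markers had 4 of 6 higher and 1 lower (median 1.19), endothelial markers a median of 1.12 and macrophage markers a median of 1.18. Germ cell markers had 4 of 6 lower (median -1.21) and all 6 spermatid markers were lower (median -2.88), with spermatid mean levels of 2.26 to 3.31 in Glis3KO2 and 5.65 to 6.09 in WT. Of 5 Schwann and nerve markers, cells that can also express Dhh, 2 rose and 0 fell (median 0.11), with mean levels of -2.69 to -2.24 in Glis3KO2 and -2.85 to -2.72 in WT. Of 3 tested epididymis markers 0 rose and 2 fell (median -2.01), and their list's mean level was -6.69 to -6.42 in Glis3KO2 and -5.74 to -3.82 in WT. Among them Crisp1, an epididymal secreted protein, was at -8.17 to -6.28 in Glis3KO2, above background on 1 of 3 arrays, and at -5.19 to -0.18 in WT, above it on 3 of 3. Crisp1 entered the test only through WT. The part of these shifts in the member differences was not tested.

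Leydig cell markers, which belong to cells that receive the Dhh signal, did not move as 1 group at 4 weeks. Of 9, 2 rose, 4 fell and 3 did not pass (median -0.75). Cyp11a1, the side-chain cleavage enzyme that opens steroid synthesis, differed by -3.68 (SE 0.18, limma adjusted p = 0.00042), and Cyp17a1, a later enzyme of androgen synthesis, by -2.85 (SE 0.19, limma adjusted p = 0.000434). Hsd17b3 and Hsd3b6 also fell, by -1.86 and -1.76. Nr5a1, the steroidogenic nuclear receptor that Sertoli cells express too, rose by 1.80. Star, the other Leydig marker that rose, differed by 1.35 (limma adjusted p = 0.0192), with 1.41 on its other probe. At 1 week 4 of 9 Leydig markers rose and 0 fell (median 0.45), 4 of 11 Sertoli markers rose with Dhh counted (median 0.35), 3 of 5 macrophage markers rose (median 0.81) and 2 of 6 germ cell markers fell (median -1.31). Over all probes at this age 3.24% were called higher and 6.76% lower. The germ cell mean was 0.29 to 2.18 in 1-week Glis3KO2 and 2.52 to 3.03 in 1-week WT. Schwann and nerve markers had 1 of 5 higher and 0 lower, and of 2 tested epididymis markers 0 passed. The epididymis mean was -8.23 to -5.68 in 1-week Glis3KO2 and -8.19 to -6.94 in 1-week WT, and Crisp1 ran from -8.08 to -0.0042 in 1-week Glis3KO2, against -9.26 to -7.29 in 1-week WT. The part of these levels in the Dhh difference was not tested.

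When each level was taken relative to the mean of a marker list on the same array, a setting added after seeing the data, the 4-week differences depended on the list. Relative to the Sertoli markers without Dhh, the Dhh difference was 0.64 at 1 week and 0.64 at 4 weeks, with no overlap between genotypes at either age. Relative to the stroma list, Dhh differed by 0.31 at 4 weeks with overlap. Hhip A_52_P249826 differed at 4 weeks by 1.15 relative to the Sertoli list and 0.88 relative to the stroma list, with no overlap in either. Against the Sertoli list the 4-week differences were 0.60 for Ptch1 A_52_P598605, 0.42 for Smo A_51_P258766, 0.24 for Gas1 and -0.23 for Boc, all with overlap. Relative to the stroma list, Ptch1 A_52_P598605 differed by 0.33, Smo A_51_P258766 by 0.16 and Gas1 by -0.023, all with overlap, and Boc differed by -0.50 with none. Relative to the Leydig list the 4-week differences were larger, at 3.26 for Dhh, 3.27 for Ptch1 A_52_P598605 and, for the other members that rose, 2.45 (Boc) to 3.82 (Hhip A_52_P249826), with no overlap. Relative to the peritubular list they were 1.54 for Dhh, 1.56 for Ptch1, 1.38 for Smo, 2.11 for Hhip, 0.73 for Boc and 1.20 for Gas1. Relative to the endothelial list they were 1.44, 1.46, 1.28, 2.01, 0.63 and 1.10 in the same order of genes, again with no overlap. Sufu A_52_P340811 differed by -2.20 relative to the Sertoli list, -2.46 to stroma, -1.24 to peritubular and -1.34 to endothelial markers, and by 0.48 with overlap relative to the Leydig list. Not taken relative to a list, this probe differed by only -0.45. The other Sufu probes were not set against the lists, and the germ cell and spermatid lists were not used. Among the members, only Hhip A_52_P249826 had no overlap at 4 weeks against each of the Sertoli, Leydig, peritubular, stroma and endothelial lists. These relative values carry no test, and the lists were chosen with earlier results of these data known.

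Other parts of the pathway were counted from lists that leave the members out. Over all probes 69.4% were called at 4 weeks (35.6% higher, 33.8% lower). At 1 week 9.99% of all probes were called (3.24% higher, 6.76% lower). The counts of these lists stand beside those shares. Among GLI and GLIS factors, the transcription factors at its end, 4 of 5 tested genes rose at 4 weeks and 0 fell. Glis2, a GLIS factor, rose by 2.53 (0.90 on its other probe), Gli2, the main activator of the GLI family, by 1.49 on 1 probe and with a difference of -0.31 on its other, Gli1, itself induced by the pathway, by 1.36 (SE 0.25, limma adjusted p = 0.00263), and Gli3, mostly a repressor, by 0.71. At 1 week 2 of 6 fell, namely Glis3 and Gli3, and the Gli3 difference was -0.52 (limma adjusted p = 0.0482). Glis3 passed the background filter only through WT. Of 9 tested genes outside the members that hedgehog signalling is known to induce in other tissues, 7 rose and 0 fell at 4 weeks (median 1.66). Gli1 is in this list as well as the GLI and GLIS list, and counts in both. Igfbp3, an insulin-like growth factor binding protein, rose by 5.01, though its other probe gave 2.13. Bcl2, which blocks cell death, rose by 2.87, the cell cycle genes Mycn, Ccnd2 and Ccnd1 by 1.68, 1.68 and 0.73, and the WNT antagonist Sfrp1 by 1.66. Foxf1, a forkhead factor, differed by 0.21 (limma adjusted p = 0.336).

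At 1 week the same list of 11 tested genes had 0 higher and 2 lower, both forkhead factors of mesenchyme that hedgehog signalling induces in gut and lung. Both passed the background filter only through WT, so that their direction was partly set by it. Foxf1 had levels of -9.19 to -7.24 in Glis3KO2 testis, above background on 1 of 4 arrays, against -3.91 to -3.67 in WT testis, above background on all 4. The difference was -4.24 (SE 0.38, limma adjusted p = 0.00295), with Glis3KO2 mostly at the edge of detection. Foxf2 was above background on 0 of 4 Glis3KO2 arrays and 4 of 4 WT arrays, at least 1.5-fold lower in Glis3KO2 (limma adjusted p = 0.0102). Gli1 at the same age differed by 0.013 (SE 0.17, limma adjusted p = 0.958).

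Ligand release and further receptors were covered by other lists, whose shares of higher genes at 4 weeks were near the 35.6% over all probes. Of 6 tested genes for other ligands and their release, 2 rose and 0 fell at 4 weeks, Disp1, which releases lipid-bearing ligand from the cell, by 1.21, and Scube2, a secreted carrier of ligand, by 1.01. Scube3 fell at 1 week, above background on 0 of 4 Glis3KO2 arrays and 4 of 4 WT arrays, at least 1.41-fold (limma adjusted p = 0.0216). It passed the background filter only through WT, so that its direction was partly set by it. Of 9 other receptors and surface modifiers, 3 rose and 2 fell at 4 weeks. Gpc3, a glypican that competes with Ptch1 for ligand, rose by 2.57, and Mgrn1, a ubiquitin ligase that lowers Smo at the surface, by 1.64. Gpc5, a glypican that favours signalling, was above background on 1 of 3 Glis3KO2 arrays and 3 of 3 WT arrays, and its fitted difference of -3.29 (-2.21 on its other probe) uses levels below detection. Gpc5 entered this comparison only through WT, so the filter favours its place in the count. Lrp2, an endocytic receptor, differed by -1.15, though the other Lrp2 probe gave 1.50. At 1 week 0 of 8 passed the test. Cdon, a further receptor of this list, was not called at 4 weeks (0.64, limma adjusted p = 0.141), and its groups overlapped. Its 1-week difference was -0.52 with no overlap (limma adjusted p = 0.051). Shh and Nkx2-2 were on the array but did not pass the background filter.

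The relay between Smo and the GLI factors, much of it in the cilium, split evenly at 4 weeks, with 9 of 19 genes higher, 9 lower and 1, the kinase gene Prkaca, not passing (median 0.15). Evc2 and Evc, which tether Smo at the base of the cilium, rose by 2.89 and 1.58, with 0.56 and 0.69 on their other probes. Tulp3, a ciliary trafficking adaptor that restrains signalling, rose by 2.14, and Ulk3, a kinase of GLI proteins, by 1.71. Prkacb, Csnk1a1, Grk2, Kif7 and Spop also rose, by 0.52 to 1.41. Stk36, the Fused kinase, differed by -2.01, Gsk3b, a kinase of GLI proteins, by -1.86, and the cilium assembly genes Ift88 and Kif3a by -1.39 and -1.48. Efcab7, Iqce, Btrc, Cul3 and Arl13b were lower as well, by -1.53 to -1.11. For Gsk3b and Csnk1a1 the other probes did not share 1 sign, at 1.00 for Gsk3b and -1.58 to 1.20 for Csnk1a1. At 1 week Gsk3b was the sole gene of the 19 to pass, at -1.11 (limma adjusted p = 0.0165).

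**Figure D4:**
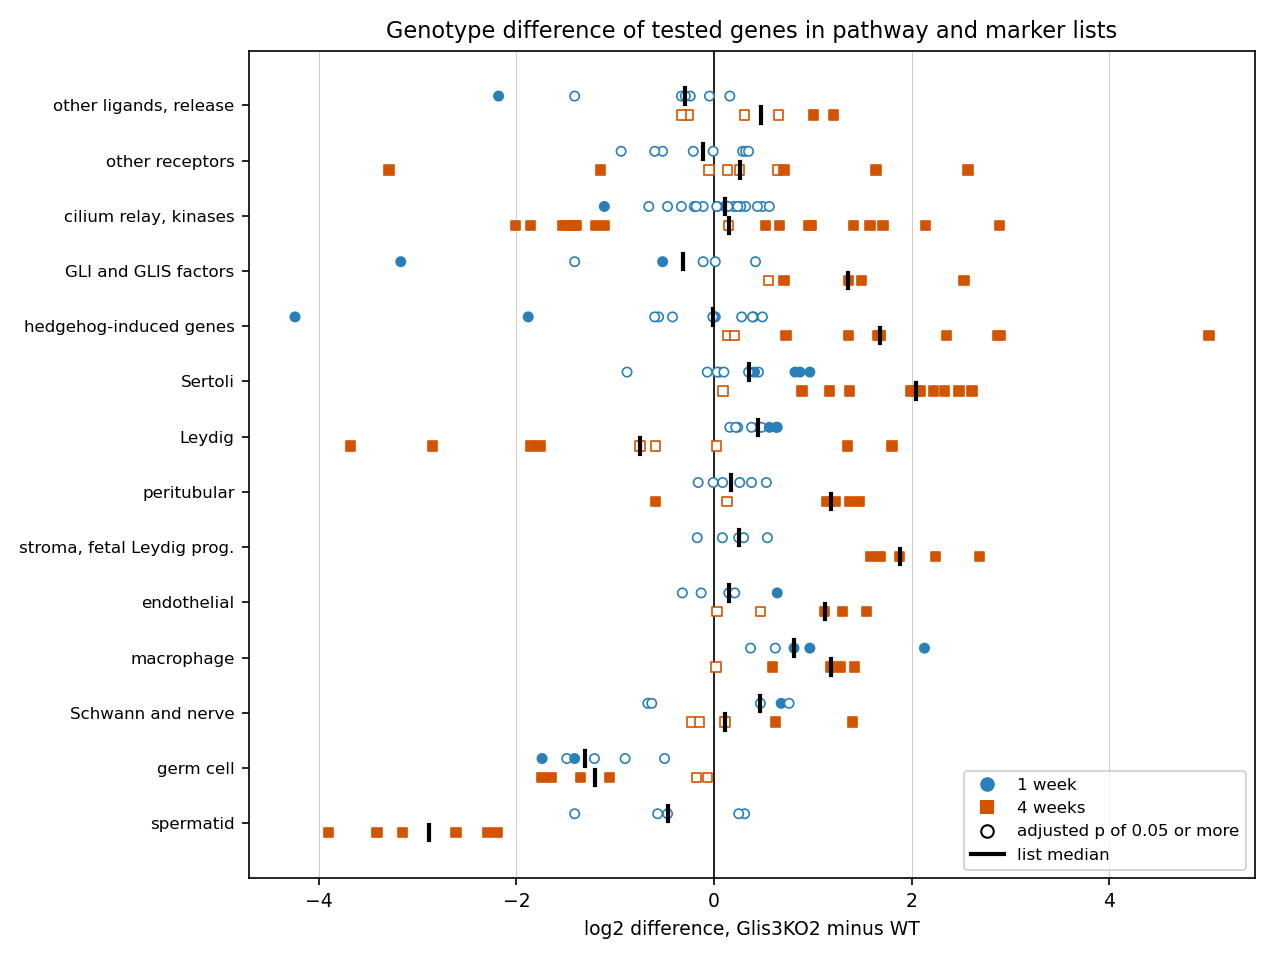
Log2 difference between Glis3KO2 and WT (horizontal axis) for each tested gene of the pathway and marker lists (rows), at 1 week (circles) and 4 weeks (squares), with open symbols where the limma adjusted p was 0.05 or more and black bars at list medians. The row of hedgehog-induced genes includes Ptch1 and Hhip and the Sertoli row includes Dhh. Fitted values of genes at background in 1 genotype, such as Glis3 and Foxf2 at 1 week, are no measure of their fold. At 4 weeks the medians of the Sertoli and stroma rows lie at 2.04 and 1.88, and that of the spermatid row at -2.88.

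The genes whose centred levels were most like each member over the 14 arrays were found by the root mean square difference on the log2 scale. Nearest to Dhh were Cenpb, a centromere protein gene (0.115), Ccdc68 (0.13) and Zfp30 (0.149). Nearest to Ptch1 A_52_P598605 was Patz1 (0.246), nearest to Smo A_51_P258766 was Samd14 (0.135), and nearest to Hhip A_52_P249826 was Thra, a thyroid hormone receptor gene (0.218). Setd7 was nearest to Boc (0.133), Col8a2, a collagen gene, to Gas1 (0.196) and Zmat3 to Sufu A_52_P340811 (0.122). These distances describe the same 14 arrays and carry no test.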

How the data were processed

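RNA levels were measured in 14 whole testis samples. Per the labels, 500 ng of total RNA gave Cy3-labelled cRNA for 1 single-colour array per sample. Per the file headers and the submitters' processing notes, the deposited scanner files were made with Agilent Feature Extraction 9.5. They hold intensity values (mean spot, local background, and a processed intensity with background subtracted and trends within the array removed), not normalized between arrays. The authors' series table repeats this processed intensity (0 spots differed at a relative tolerance of 1e-06). The deposited spot flags were used as yes or no values.

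Non-uniform and population outlier spots were left out. The log2 processed intensity was averaged over the spots of a probe, less the 75th percentile over all non-control probes on that array. Each probe was tested on its own with limma 3.58.1 in R 4.3.3, per age, for age in WT, and for the interaction in 1 fit of all 14 arrays. Adjusted p-values use Benjamini-Hochberg over all probes tested, and a call is an adjusted p under 0.05. A probe at background in a whole group has a lower bound in place of a fold.

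Every probe of the 7 genes is reported. The members, gene lists and naming rules were chosen with earlier results of these data known. Members of other lists are named where called at either age, with a few others, and the probe with the highest mean level stands for a gene. A few list genes are counted but not reported by name. Genes most like a member were sought among probes above background on all 14 arrays whose symbol is in the RefSeq table. Replicate numbers did not pair the samples: the correlation of deviations from the group means of same-numbered samples was -0.165 to 0.136 at 1 week and -0.283 to 0.126 at 4 weeks. The procedure was tested on simulated data. Alternatives were other scalings, normexp with an offset of 50, other filters, the mean of all probes of a gene, other variance models, slide and replicate blocks, single slides, and leaving out each array. The number of arrays limits the precision. Python 3.11.15, numpy 2.4.6, pandas 2.3.3 and matplotlib 3.10.9 served for tables and figures.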

Additional observations from a re-analysis of the deposited data

Results flagged for a closer look

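The genotype difference was unequal at the 2 ages, by the interaction term, for each of the 12 tested probes. The 4-week minus 1-week value was 1.46 for Dhh, 2.91 and 3.24 for Ptch1 A_52_P598605 and A_51_P127435, 1.51 and 1.36 for Smo A_51_P258766 and A_52_P444864, and 2.62 and 3.79 for Hhip A_52_P249826 and A_51_P416822. For Hhip A_51_P416822 the 4-week WT level is at background, so 3.79 depends on values below detection. It was -0.67, -2.32 and -2.34 for Sufu A_52_P340811, A_52_P603184 and A_51_P396550, 1.34 for Boc and 1.59 for Gas1. Of all 35144 probes, 51.9% passed the same test.

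On the intron-crossing Smo probe A_52_P444864, 1-week Glis3KO2 replicate 4 had a level of -1.44, far above the other replicates of its group at -1.92, -1.95 and -1.99. No other array shared its slide or its scanning day. It was the only far array among 24 groups of 4 arrays looked at, and chance marks about 1 in 20.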

How the results depend on the processing

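At 4 weeks the direction of all 12 member probes held in every alternative run, and 11 kept their call in every alternative with a test, while Sufu A_52_P340811 lost it in 6 of 18. Between the single arrays of slide 5, which allow no test, differences were 1.91 (Dhh), 1.80 (Ptch1 A_52_P598605), 1.52 and 1.29 (Smo A_51_P258766 and A_52_P444864), 2.41 and 3.05 (Hhip A_52_P249826 and A_51_P416822) and -2.21 (Sufu A_52_P603184). At 1 week Dhh was called in 15 of 22 alternatives, with differences of 0.46 to 1.13.

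Signs that turned were all of small or uncalled 1-week differences, with 1 exception. The 1-week difference of Hhip A_51_P416822 became 0.24 with median scaling, 0.20 with quantile normalization, 0.038 with normexp, and 0.15 and 0.19 without WT replicate 2 and Glis3KO2 replicate 3. Over all settings that leave out arrays it was -0.20 to 0.19, the lowest without replicate 4 of both genotypes. Sufu A_52_P340811 became -0.19 when the mean of all Sufu probes was used, and Gas1 -0.034 within slide 2. The exception is age in WT, where the mean of all Sufu probes gave 3.07 in place of -0.45, since that mean includes the probes that rose. With median scaling that Sufu probe was not called between the ages (-0.31, limma adjusted p = 0.0903).

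The 1-week number of called probes, 3369, was 5219 with median scaling, 1497 with no filter, 2187 with 1 value per gene, 5517 with trend and robust moderation, 5824 in 1 fit of all arrays, 681 with slide as a block, 587 with a replicate block, and 0 by limma within slide 1 and within slide 2 (6208 and 1663 at an unadjusted p under 0.05). Leaving out single arrays gave 395 to 5235, the lowest without WT replicate 1 and the highest without WT replicate 4. With 1 value per gene, which tests fewer features, the counts were 14407 at 4 weeks, 18914 for age and 11641 for the interaction, against 21765, 28600 and 18248. Other causes were not tested. The replicate block, whose numbers do not pair the samples, took the 1-week Dhh call (0.87, limma adjusted p = 0.0616) and the 4-week Sufu A_52_P340811 call (-0.45, limma adjusted p = 0.0832) past the threshold and ended no other member call. Signal near background limits Ptch1 A_51_P127435 and Hhip A_51_P416822 in 4-week WT.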
